A study of Homo sapiens with 5 samples.

Results

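MDA-MB-468 cells after 6 days in afatinib were compared with cells of the same line after 3 days in the drug. The cells of each day were chosen by the library prefix of the cell name, which gave 479 cells for D3 and 942 cells for D6, or 1421 of the 4101 cells in the series. MDA-MB-468 is an established triple-negative breast cancer line with amplified EGFR. Afatinib is a covalent inhibitor of the receptor kinases EGFR and HER2. All cells carried CloneTracker XP lentiviral barcodes with the fluorescent protein Venus and had been selected with puromycin, so the untreated cells share these with the treated ones. The treated cells were held in 250 nM afatinib for 3, 6 or 9 days (D3, D6, D9), frozen and thawed before capture. The untreated cells (D0) were captured as 2 replicate libraries. Each treated day is 1 library, so the difference between D6 and D3 has no replicate check, and culture, thawing, capture and day cannot be told apart.

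EGFR signals through the RAS-ERK and PI3K-AKT cascades, and ERK drives the immediate early genes, a class of transcription factors and feedback proteins whose transcripts are made and lost quickly. Cells that go on living under an EGFR inhibitor are often described as tolerant cells that have turned to other programs, among them stress pathways and epidermal-like differentiation. The unfolded protein response is one such pathway. In it, unfolded proteins in the endoplasmic reticulum (ER) activate ATF6, IRE1 and PERK, and the transcription factors ATF6, XBP1 and ATF4 then raise chaperones, degradation factors and pro-death regulators.

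The counts of a gene were summed over the cells of a library and scaled to 1000000 counts of that library (CPM), a relative level. In such sums, fewer cells that use a gene and less RNA of it per cell cannot be told apart. D3 had 14517579 counts and D6 15688089. The median cell held 22715 UMIs (unique molecular identifiers, 1 for each captured RNA molecule) at D3 and 13862 at D6, and 13.2% of D3 cells and 32.3% of D6 cells held fewer than 10000. Mitochondrial transcripts made up 19.5% of the counts of the median D3 cell and 17.8% of that of the median D6 cell, above the 6.80% to 7.98% of the other 3 libraries. Deep cells weigh more in the sums. The 48 deepest D3 cells held 27.3% of the D3 counts and the 94 deepest D6 cells 22.8% of the D6 counts. At D3, 50 cells held more UMIs than any D6 cell. The depth and mitochondrial share therefore differ beside every result, and their part in it was not tested. D3 and D6 shared 1 cell barcode and no other pair of libraries shared any. All 8 epithelial markers (EPCAM, CDH1, KRT5, KRT7, KRT8, KRT18, KRT19 and EGFR) were present in both libraries and summed to 7111 CPM at D3 and 5693 CPM at D6. None of 10 immune markers was in the table. The 3 endothelial markers in the table summed to 35.06 and 29.96 CPM, with CLDN5 at 0 in both libraries, and the 3 fibroblast markers to 6.68 and 9.05 CPM.

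In sums over all cells, few genes separated the days, and the counts changed with the cells summed, as given further on. In cells of 10000 to 30000 UMIs, for example, 612 of 6733 genes were at least 1.5-fold higher at D6 and 622 lower. Of 6621 genes whose mean over the 2 libraries reached 20 CPM, 54 were at least 1.5-fold higher at D6 (0.816%) and 53 at least 1.5-fold lower (0.8%), and "rose" and "fell" below are used only for genes past that fold. At a ratio of 2, 16 genes rose and 11 fell. The median log2 ratio over all 6621 genes was -0.04. Of all 6621, 2696 lay above 0 and 3925 below, the base for the counts of list members given further on. All 107 genes had a 95% counting interval that left out 0. That outcome was set by the choice of genes past the fold, since the widest interval spanned 0.52 in log2. Such an interval covers counting error only and not the spread between cells or the difference between cultures. It also treats the batch-adjusted values as counted molecules. Those 107 genes are 1.62% of the genes tested. The same rule gave 6 of 6068 genes (0.0989%) between the 2 untreated libraries, which the authors' batch adjustment had aligned with each other, so that this count is no measure of the spread between replicates. It gave 1630 of 6475 (25.2%) between D3 and untreated replicate 1, and 1415 of 6469 (21.9%) between D9 and D6. Of the 53 falls, 43 lay among the 3259 genes between 20 and 50 CPM, where 26 genes rose. The median log2 ratio there was -0.10. Among the 580 genes from 200 to 1000 CPM (median 0.05), 8 rose and 2 fell. Of the 108 genes from 1000 CPM up (median 0.08), 1 rose and 0 fell. The median of all genes thus shifted with level, and the part of that shift in these counts was not tested.

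**Figure D1:**
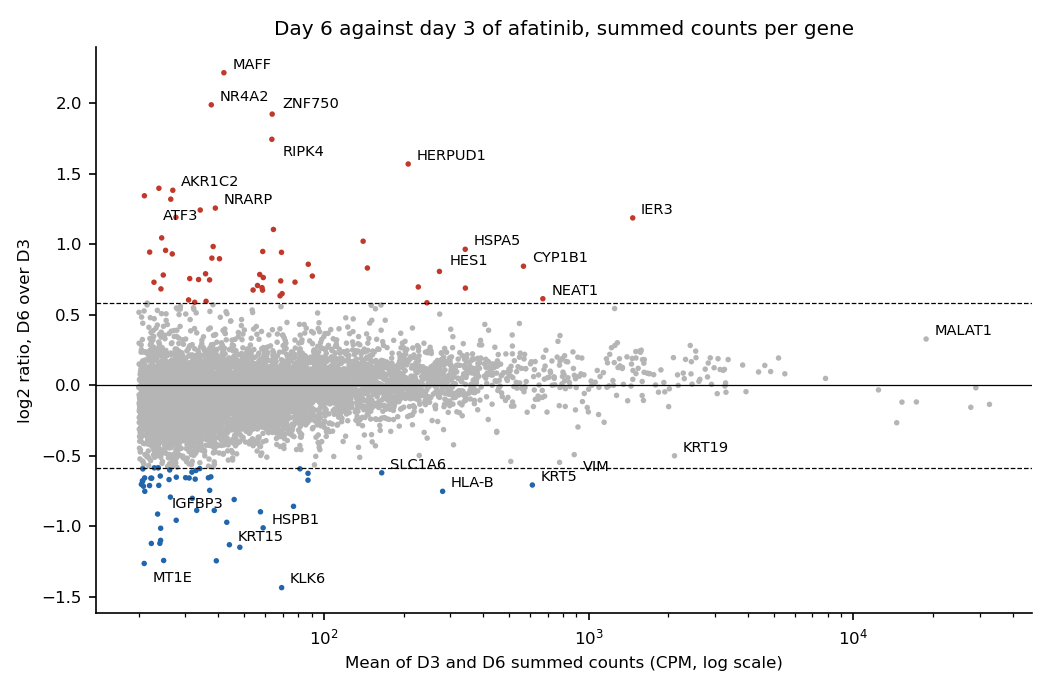
Each point is 1 of 6621 genes, with its mean level over D3 and D6 in CPM on a log axis and its log2 ratio of D6 over D3 on the vertical axis. The 54 genes that rose (red) lie above the upper dashed line, drawn at a ratio of 1.5, and the 53 that fell (blue) below the lower one, with MAFF highest at 2.22 and KLK6 lowest at -1.44.

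Among the genes that rose were 7 of 33 tested ER chaperones and degradation factors, a list drawn up after the values were seen. HERPUD1, an ER membrane protein of ER-associated degradation, was the fifth of all genes by ratio. Its level was 46.7 CPM in untreated replicate 1, 44.1 in untreated replicate 2, 105 at D3, 312 at D6 and 182 at D9, and levels below are given in this order of libraries. D6 was the highest of the 5 libraries. The D6 over D3 ratio was 2.97 (log2 1.57, counting interval 1.49 to 1.65). HSPA5 (also called BiP), the main ER chaperone of the HSP70 family and the protein that holds the stress sensors inactive, stood at 174, 182, 232, 452 and 266 CPM. Its log2 ratio was 0.96 (0.91 to 1.02), with D6 again the highest library. SDF2L1, a partner of HSPA5, stood at 125, 121, 105, 187 and 135 CPM (log2 ratio 0.83). HYOU1, an ER chaperone that exchanges the nucleotide of HSPA5, stood at 40.1, 46.0, 66.7, 114 and 50.6 CPM (0.77).

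The ER stress element, the sequence through which ATF6 acts together with NF-Y, is known in a first form, written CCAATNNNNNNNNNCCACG, and in a shorter second form, ATTGGNCCACG. Windows of 250 bases before to 50 after the gene start in RefSeq (GRCh38.p14) were searched for both forms on both strands. The choice of motif was made after the values of these genes were seen. The first form was in 27 of 35116 windows (0.0769%) and the second in 19 (0.0541%). Of 6621 genes, 5478 were matched to a window by symbol. The 4 genes just described are shown because each window holds a form, written in capitals, 5′ to 3′ on the strand of the gene. HERPUD1 lies at chr16:56931892-56932191 (plus strand), HSPA5 at chr9:125241294-125241593 (minus), SDF2L1 at chr22:21642052-21642351 (plus) and HYOU1 at chr11:119057156-119057455 (minus, 2 matches).
HERPUD1: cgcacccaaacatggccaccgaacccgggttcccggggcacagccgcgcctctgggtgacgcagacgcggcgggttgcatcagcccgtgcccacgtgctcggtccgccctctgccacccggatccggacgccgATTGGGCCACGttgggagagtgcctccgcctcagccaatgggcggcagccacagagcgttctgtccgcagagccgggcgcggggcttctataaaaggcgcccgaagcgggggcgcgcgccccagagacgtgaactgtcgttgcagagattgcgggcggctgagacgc
HSPA5: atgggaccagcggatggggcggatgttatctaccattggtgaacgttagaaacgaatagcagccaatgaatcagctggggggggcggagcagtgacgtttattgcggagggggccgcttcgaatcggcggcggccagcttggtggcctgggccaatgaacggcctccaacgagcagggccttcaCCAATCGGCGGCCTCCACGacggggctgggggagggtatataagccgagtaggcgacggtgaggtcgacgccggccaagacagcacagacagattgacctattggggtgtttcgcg
SDF2L1: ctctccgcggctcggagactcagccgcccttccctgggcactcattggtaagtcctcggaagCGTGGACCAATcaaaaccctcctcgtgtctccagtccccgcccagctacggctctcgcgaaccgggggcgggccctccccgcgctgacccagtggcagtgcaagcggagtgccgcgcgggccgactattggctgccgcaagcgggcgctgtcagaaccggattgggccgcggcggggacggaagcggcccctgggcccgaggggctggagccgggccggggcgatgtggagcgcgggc
HYOU1: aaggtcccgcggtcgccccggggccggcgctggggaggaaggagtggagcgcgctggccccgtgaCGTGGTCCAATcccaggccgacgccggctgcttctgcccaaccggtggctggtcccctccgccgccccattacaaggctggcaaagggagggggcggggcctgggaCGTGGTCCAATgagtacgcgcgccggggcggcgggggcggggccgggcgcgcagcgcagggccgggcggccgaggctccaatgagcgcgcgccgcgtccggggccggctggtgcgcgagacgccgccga

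Among the 6621 genes, 22 held either form in the window. Of these, 4 rose (HERPUD1, HSPA5, SDF2L1 and HYOU1) and 0 fell, beside 54 and 53 of all 6621 genes. Of the 22, 15 had a log2 ratio above 0, beside 2696 of all genes, and their median was 0.15 beside -0.04. The motif was chosen after the values of those 4 were seen, so the count and the median are partly set by that choice. Others of the 22 did not pass the fold, such as XBP1, a transcription factor of the response (112 CPM at D3 and 146 at D6, log2 ratio 0.38), HSP90B1, an ER chaperone of the HSP90 family (348 and 434 CPM, 0.32), and CALR, a lectin chaperone (572 and 635 CPM, 0.15). A match is a description of the letters and not a measured site. DNAJB9, SYVN1, DNAJB11 and DDIT3 rose too and their windows hold neither form.

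DNAJB9, a J-domain co-chaperone of HSPA5, stood at 11.9, 9.95, 11.8, 30.1 and 21.1 CPM, so D3 was at the level of the untreated libraries and D6 at 2.54 times it (log2 1.34, 1.09 to 1.61). SYVN1, the ubiquitin ligase HRD1 of ER-associated degradation, took another course, at 63.1, 54.0, 25.6, 50.7 and 34.9 CPM (log2 ratio 0.98). There D6 lay closer to the untreated libraries than D3 did. DNAJB11, another ER co-chaperone, stood at 54.3, 60.2, 58.5, 97.1 and 87.5 CPM (0.73). The list of ER chaperones and degradation factors held 38 genes, of which 33 had the minimum level, 7 rose and 0 fell. Its median log2 ratio was 0.15, 26 of the 33 lay above 0, and its summed level went from 4463 to 5504 CPM. The disulfide isomerases of that list moved little, as for P4HB (292 and 281 CPM) and PDIA6 (418 and 440 CPM).

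Of the 24 tested genes on the list for the integrated stress response, which shares several of these members, 7 rose and 0 fell, with a median log2 ratio of 0.22. DDIT3 (CHOP), a pro-apoptotic factor of the PERK arm, stood at 24.9, 24.0, 42.0, 72.5 and 73.0 CPM (log2 ratio 0.79, 0.64 to 0.93). SESN2, a stress sensor that restrains mTORC1, stood at 10.8, 11.4, 27.6, 46.4 and 37.4 CPM (0.75), and in cells under 10% mitochondrial counts its log2 ratio was 0.17. PPP1R15A (GADD34), which restores translation after stress, is not on the list and stood at 32.7, 34.5, 42.6, 69.7 and 45.4 CPM (0.71). ATF4 itself, the main transcription factor of this response, was at 483 CPM at D3 and 498 at D6 (log2 ratio 0.05). In a list of 18 ATF4 targets of amino acid supply, also drawn up after the values were seen, 13 were tested and none passed the fold in either direction, with a median log2 ratio of 0.03. PHGDH and PSAT1, enzymes of serine synthesis, were at 667 and 225 CPM at D3 and at 623 and 215.5 CPM at D6. None of 18 tested aminoacyl-tRNA synthetases passed the fold (median -0.05). Within the stress lists the genes that rose were ER chaperones, degradation factors, DDIT3, ATF3 and SESN2. Of the 13 tested ATF4 targets, 7 lay above 0, with SLC38A2 highest (0.51). The contrast between that list and the ER list is partly set by the late choice of their members.

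**Figure D2:**
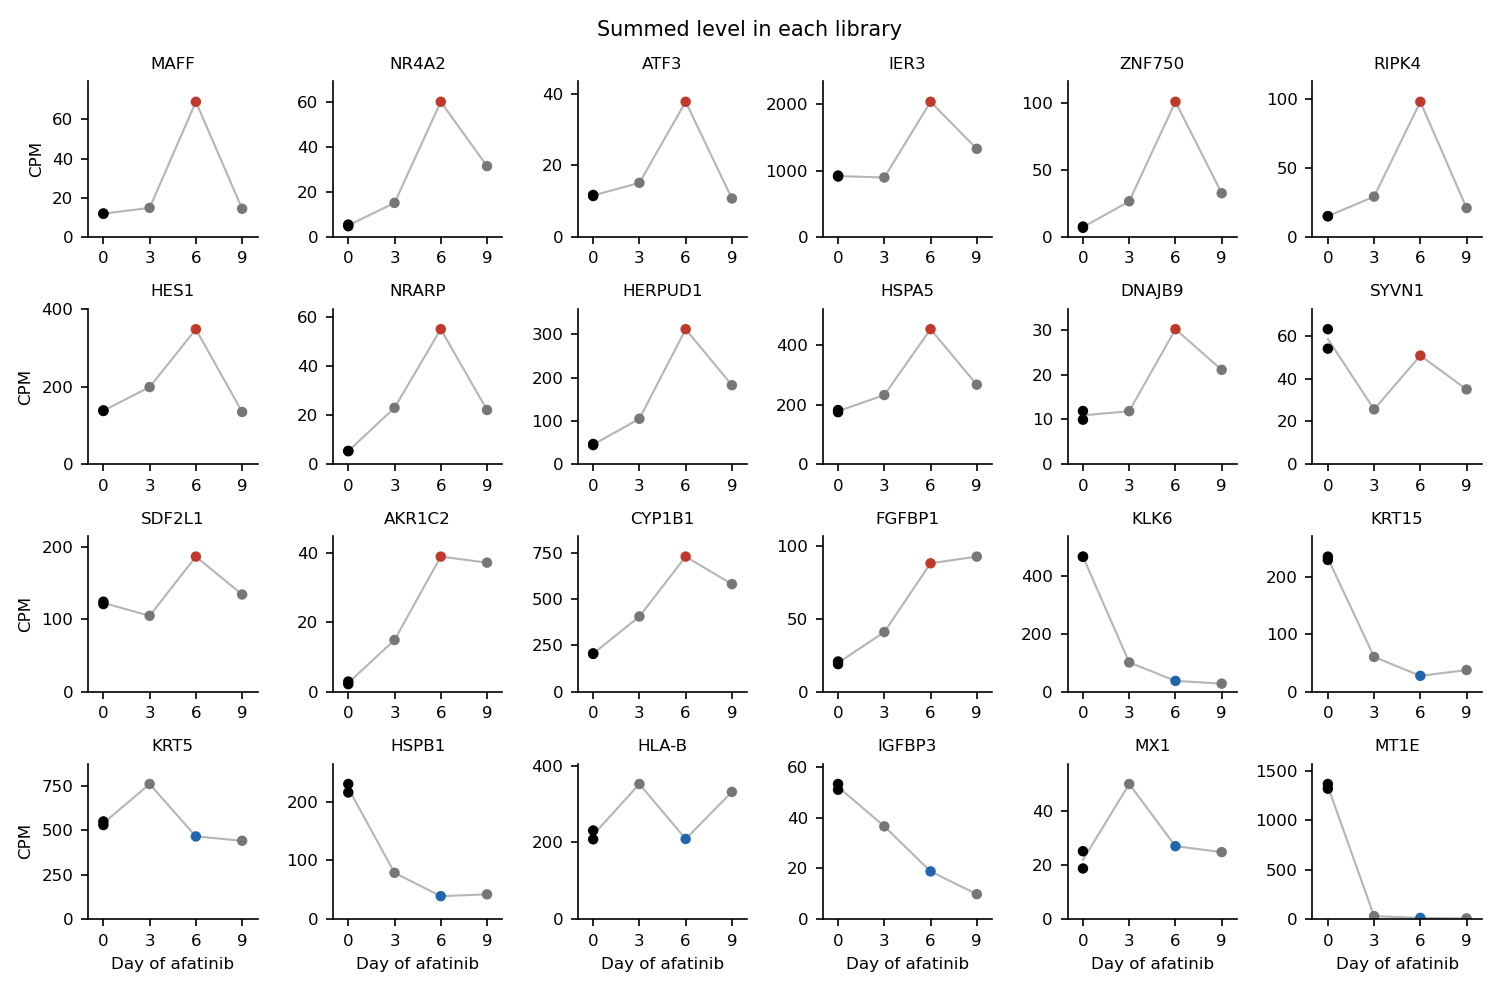
Level in CPM of 24 named genes (axes from 0, scaled to each gene) against the day of afatinib, with 1 point for each library (black untreated, red or blue D6, grey D3 and D9) and a line through the mean of the 2 untreated libraries. HERPUD1, ZNF750 and MAFF peak at D6, while KLK6 is lowest at D9.

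MAFF had the highest ratio of all genes. This small MAF transcription factor is induced early by stress and growth signals, but is not on the list of immediate early factors given below. It stood at 11.9, 11.8, 14.8, 69.0 and 14.3 CPM. Only the D6 library was high, at 4.65 times D3 (log2 2.22, 2.01 to 2.44). In cells under 10% mitochondrial counts MAFF was at 17.8 CPM at D3 and 41.0 at D6, and in the other cells at 13.6 and 81.9. NR4A2, an orphan nuclear receptor of the immediate early class, stood at 5.44, 4.72, 15.1, 60.0 and 31.4 CPM (log2 ratio 1.99, 1.78 to 2.21). Its relative NR4A1 stood at 5.88, 6.96, 15.9, 32.9 and 16.3 CPM (1.05, 0.82 to 1.28). Both receptors were already higher at D3 than in either untreated library. ATF3, a stress-induced repressor that is on both this list and the stress list, stood at 11.7, 11.4, 15.1, 37.7 and 10.7 CPM (1.32, 1.10 to 1.55). Its ratio ended short of the fold in G1 cells (0.32) and in cells under 10% mitochondrial counts (0.43).

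IER3, an early response gene with a role in survival that ERK phosphorylates, was the only gene above 1000 CPM to pass the fold. It stood at 926, 911, 896, 2040.3 and 1329 CPM, flat from untreated to D3 and then 2.28 times higher at D6 (log2 1.19, 1.16 to 1.22). KLF6 and KLF2, zinc-finger factors induced by stress, stood at 173 and 15.02 CPM at D3 and at 281 and 28.9 CPM at D6. The KLF6 log2 ratio of 0.70 became 0.56 in G1 cells and 0.52 in cells of 10000 to 30000 UMIs. Of the 11 tested members of the list of AP-1 and immediate early factors, 5 rose (NR4A2, ATF3, NR4A1, KLF2 and KLF6) and 0 fell, with a median log2 ratio of 0.29. The AP-1 subunits proper gave other values. FOS was at 66.5 CPM at D3 and 54.9 at D6 (log2 ratio -0.28), FOSB at 41.2 and 29.6 (-0.47), JUN at 268 and 288 (0.10) and JUNB at 67.2 and 74.0 (0.14). FOSL1, the FOS relative most tied to sustained ERK signalling, went from 79.2 and 86.4 CPM in the untreated libraries to 14.5 at D3, 11.98 at D6 and 5.84 at D9.

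Feedback phosphatases and inhibitors moved apart from each other. DUSP1 and DUSP8, phosphatases that act mainly on the stress kinases, rose from 26.2 to 45.3 CPM and from 17.2 to 33.3 CPM. DUSP6, the ERK phosphatase, was at 7.85 CPM at D3 and 6.57 at D6, below the minimum level. SPRY1, an inhibitor of receptor kinase signalling, fell from 38.4 to 25.1 CPM (log2 ratio -0.62), a ratio that missed the fold with TMM (-0.54) or DESeq2 size factors (-0.53). Of 9 tested genes of ERK output and feedback, 1 rose (IER3) and 1 fell (SPRY1). MYC, a transcription factor of growth, was at 143 CPM at D3 and 198 at D6 (0.46), and CCND1, cyclin D1, at 289.65 and 286 CPM. GADD45G, a growth arrest protein that activates stress kinases, rose from 16.8 to 38.4 CPM (1.19), while its relatives GADD45A (41.2 and 50.04 CPM) and GADD45B (52.1 and 46.1 CPM) did not pass the fold.

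A pair of regulators of epidermal differentiation were the third and the fourth of all genes by ratio. ZNF750, a zinc-finger factor that drives terminal differentiation of keratinocytes, stood at 6.75, 7.67, 26.6, 101.03 and 32.6 CPM. Its D6 over D3 ratio was 3.80 (log2 1.92, 1.76 to 2.09), and the range over 10 other settings was 1.5 to 2.12. RIPK4, a kinase needed for the same process, stood at 15.02, 14.96, 29.2, 98.0 and 20.9 CPM (log2 ratio 1.75, 1.59 to 1.91). Both were highest at D6 and were near the D3 level again at D9. The other 8 tested genes of that list of 10 did not pass the fold, among them TFAP2A (131 and 165 CPM), KLF5 (34.5 and 36.7), ELF3 (157 and 143) and GRHL2 (40.0 and 36.2), and the median of the list was 0.10. GRHL3, known as a partner regulator in epidermis, was at 8.47 and 7.52 CPM, under the minimum level.

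Genes of the upper epidermis outside that list went both ways. CASP14, a caspase of the cornified layer, stood at 17.9, 19.5, 32.9, 15.1 and 14.3 CPM (log2 ratio -1.12, -1.35 to -0.90). LY6D, a surface protein of stratified epithelium, stood at 74.8, 75.3, 57.0, 29.0 and 17.0 CPM (-0.97), and in cells of 10000 to 30000 UMIs its ratio was -0.49. SLURP2, a secreted relative of LY6D, fell from 46.4 to 27.7 CPM. PI3, the protease inhibitor elafin of stressed epidermis, went the other way, from 43.7 to 74.3 CPM.

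Of 9 tested Notch receptors and targets 2 rose, NRARP and HES1. NRARP, a feedback inhibitor that Notch induces, stood at 5.44, 5.29, 22.9, 54.9 and 22.0 CPM (log2 ratio 1.26, 1.07 to 1.45). HES1, the standard Notch-induced repressor, stood at 139, 137, 199, 348 and 135 CPM (0.81, 0.74 to 0.87). For both genes D6 was the highest library and D9 was back at or below D3. HES4, another Notch target, stood at 271, 278, 345, 392.4 and 494 CPM (0.18), highest at D9. The receptors were level, with NOTCH1 at 48.7 and 49.0 CPM, NOTCH2 at 30.9 and 31.2 and NOTCH3 at 130.3 and 138. All 9 tested members lay above 0, 0 fell, and the median was 0.09. In cells of 10000 to 30000 UMIs that median was -0.22, while NRARP and HES1 were past the fold under each of 10 other settings.

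AKR1C1 and AKR1C2 are aldo-keto reductases that clear steroids and reactive aldehydes and are induced by NRF2. AKR1C1 stood at 3.31, 3.30, 20.3, 48.0 and 36.04 CPM (log2 ratio 1.24, 1.05 to 1.44) and AKR1C2 at 2.92, 2.17, 14.9, 38.9 and 37.1 CPM (1.38, 1.16 to 1.62). They are neighbours on chromosome 10 (chr10:4963253-4983283 and chr10:4987775-5018031) and near-identical in sequence, so reads may have been split between them and the 2 values are not independent. Of 22 tested antioxidant and NRF2 targets, these 2 and GSTM3 rose, 0 fell, and the median was 0.05. GSTM3, a glutathione transferase, was at 25.97 and 39.1 CPM, at the edge of the fold (0.59), and at 0.36 in cells of at least 10% mitochondrial counts. The other NRF2 targets were closer to level, such as NQO1 at 128 and 176 CPM (0.46), TXNRD1 at 47.5 and 56.7 (0.26), GCLM at 40.9 and 37.4 (-0.13) and SRXN1 at 22.4 and 19.2 (-0.22).

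Other rises did not belong to a list that moved as a whole. CYP1B1, a cytochrome that oxidises estrogens and aromatic compounds, stood at 204, 207, 406, 729 and 581 CPM (0.84, 0.80 to 0.89), past the fold under each of 10 other settings. FGFBP1, which releases fibroblast growth factors from the matrix, stood at 18.9, 20.7, 40.9, 88.1 and 92.7 CPM (1.11), and is among the 11 risen genes whose highest library was D9. LINC-PINT, a long noncoding RNA induced by p53, stood at 5.14, 3.69, 13.1, 34.5 and 11.5 CPM (1.40).

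Feedback genes of NF-kB, a pathway of inflammation and survival, split. NFKBIA, the inhibitor that NF-kB itself induces, stood at 39.6, 37.9, 62.1, 113 and 66.4 CPM (log2 ratio 0.86, 0.74 to 0.98). MAP3K8, a kinase that links this pathway to ERK, rose from 40.1 to 77.4 CPM, and the chemokine CX3CL1 from 26.3 to 49.2 CPM. NFKBIZ, another NF-kB-induced regulator, fell from 31.5 to 20.8 CPM (-0.60). Of 7 tested members of the list, 2 rose and 1 fell, with a median of -0.23. The CX3CL1 ratio of 0.90 became 0.49 in cells of 10000 to 30000 UMIs and 0.51 in cells under 10% mitochondrial counts.

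Among the lower genes were 4 of 10 tested kallikreins and basal keratins. KLK6, a secreted serine protease of the kallikrein family, had the lowest ratio of all genes and stood at 467, 467, 101.2, 37.4 and 27.8 CPM. The log2 ratio was -1.44 (-1.58 to -1.30), so the gene went down at each step of the course. KRT15, a keratin of basal and progenitor cells, stood at 229, 235, 60.4, 27.5 and 37.6 CPM (-1.13, -1.30 to -0.97). KRT5, the main basal keratin, stood at 529.8, 550.0, 761, 466 and 441 CPM (-0.71, -0.75 to -0.67), and so was higher at D3 than in the untreated libraries and lower than them at D6. KLK5, the kallikrein that activates others in skin, was at 107 and 67.1 CPM (-0.67), but at 0.24 in cells of 10000 to 30000 UMIs. Of the list 0 genes rose, with a median of -0.39 and 9 of 10 below 0. KRT14 (71.8 and 68.0 CPM), the usual partner of KRT5, and KRT17 (98.0 and 91.0 CPM) did not pass the fold. KRT19, a luminal keratin, was at 2474 and 1748 CPM (-0.50), and VIM, the mesenchymal filament vimentin, at 1032 and 733 CPM (-0.49).

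Of 22 tested genes on the list for epithelial adhesion, 1 fell (ITGB4) and 0 rose, with a median of -0.01. ITGB4, the integrin of hemidesmosomes, was at 36.8 CPM at D3 and 23.3 at D6, while ITGA6, its partner chain, was at 108 and 149.99 (log2 ratio 0.47). ITGA2, a collagen receptor, fell from 25.8 to 16.3 CPM and FBLN1, a matrix glycoprotein, from 45.7 to 29.1, and both lie outside that list. MMP7 (matrilysin), a protease of epithelial cells, stood at 46.9, 46.8, 55.2, 23.3 and 27.2 CPM (log2 ratio -1.25), and its ratio was -0.50 in cells under 10% mitochondrial counts. Its counts were unevenly spread, since 10 cells held 45.3% of them at D3 and 28.5% at D6.

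Class I antigen presentation gave the lowest median of the lists described here. HLA-B, a class I heavy chain, stood at 231, 208, 353, 209 and 332 CPM (log2 ratio -0.75, -0.82 to -0.69). HLA-F, a class I chain of restricted expression, stood at 14.4, 15.7, 32.4, 15.999 and 23.7 CPM (-1.02), and PSMB9, an interferon-induced subunit of the immunoproteasome, at 34.1, 36.6, 40.5, 23.2 and 42.9 CPM (-0.80). For HLA-B and HLA-F the D6 level lay next to the untreated one and D3 was the highest library. Of 14 tested genes 3 fell and 0 rose, with a median of -0.40, and HLA-C (502 and 398 CPM, -0.33) did not pass the fold. B2M, the shared light chain, was at 549 and 496 CPM (-0.15). The class I chains are close paralogs, so their reads may be split among them. In cells of 10000 to 30000 UMIs HLA-B was at -0.43 and PSMB9 at -0.21.

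The values of 3 interferon-stimulated genes rested on few cells. MX1, an antiviral GTPase, stood at 25.2, 18.8, 50.1, 27.0 and 24.8 CPM (log2 ratio -0.89) and IFI6, an interferon-induced mitochondrial protein, at 14.5, 11.01, 33.4, 19.2 and 26.3 CPM (-0.79). In both libraries a small number of cells carried much of the count. The 10 highest cells held 62.9% of the MX1 counts at D3 and 38.2% at D6, and without them the levels were 18.6 and 16.7 CPM. For IFI6 those cells held 71.5% and 55.3%, and without them the levels were 9.51 and 8.61 CPM. Without its own 10 highest cells HLA-B was at 248 CPM at D3 and 177 at D6, a ratio short of the fold. Leaving out 10 cells takes a larger part of the 479 D3 cells than of the 942 D6 cells, so the trim is unequal. The MX1 ratio over all its cells was past the fold under each of 10 other settings, between -2.65 and -0.74. OASL, an interferon-induced antiviral protein, went the other way, from 23.1 to 39.1 CPM (0.76), yet 3 cells held 65.8% of its counts at D3 and 71.0% at D6, and without the 10 highest cells it was at 2.34 and 2.93 CPM. The OASL ratio turned to -2.92 in G1 cells and to -0.37 in cells of 10000 to 30000 UMIs. Of 11 tested interferon-stimulated genes, 3 fell (MX1, IFI6 and UBE2L6) and 1 rose (OASL), with a median of -0.27. The chemokine CCL5 was at 10.5 and 19.6 CPM, with 99.3% and 95.8% of its counts in 10 cells.

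Secreted inhibitors of insulin-like growth factors fell as well. IGFBP3 stood at 53.3, 51.0, 36.6, 18.8 and 9.81 CPM (log2 ratio -0.96, -1.17 to -0.75), a stepwise decline over the course. IGFBP4 stood at 71.2, 79.1, 58.4, 33.3 and 33.1 CPM (-0.81, -0.97 to -0.65). IGFBP2, the binding protein that the study follows up, stood at 127, 127, 227, 217 and 287 CPM, and its log2 ratio between D6 and D3 was -0.07 (-0.14 to 0.00). The study compared IGFBP2 between tolerant and sensitive lineages, and lineages were not separated here. IGF1R, the receptor, was at 32.9 and 29.3 CPM (-0.17). Of 9 tested genes of the axis 2 fell and 0 rose.

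Metallothioneins, small metal-binding proteins, were already far below the untreated level at D3. MT1E stood at 1365, 1318, 29.6, 12.3 and 6.77 CPM, with a D6 over D3 log2 ratio of -1.27 (-1.52 to -1.02) that became -0.52 in cells of 10000 to 30000 UMIs. MT2A was at 3243 and 3213 CPM untreated, 279 at D3, 234 at D6 and 67.2 at D9 (-0.25). The metallothioneins are near-identical copies of each other, and their counts are uncertain for that reason. HSPB1, a small heat shock protein, stood at 215.9, 230.3, 78.9, 39.1 and 42.2 CPM (-1.01), but at 0.021 in cells of 10000 to 30000 UMIs, so its fall depended on which cells were summed. It was the 1 gene of 18 tested on the heat shock list to pass the fold. SNHG25, a host transcript of small nucleolar RNA, stood at 51.5, 76.6, 34.9, 14.7 and 7.49 CPM (-1.24), and DGAT2, the last enzyme of triglyceride synthesis, at 26.9, 23.8, 33.0, 15.4 and 20.9 CPM (-1.10).

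Over all cells, the drug targets and the cell cycle differed little between the days. EGFR stood at 834, 871, 946, 838 and 584 CPM (log2 ratio -0.18, -0.21 to -0.14), ERBB2 at 25.8 CPM at D3 and 24.7 at D6, and ERBB3 at 37.2 and 35.95. The median of the 3 tested ERBB receptors was -0.06, and it lay between -0.55 and 0.02 over the other settings. None of the 6 EGFR ligands in the table reached the minimum level. Of 59 tested genes of G2 and mitosis none passed the fold, with 52 below 0, beside 3925 of all 6621 genes. The median of the list was -0.15, which became 0.17 in cells of 10000 to 30000 UMIs and 0.14 in G1 cells. Of 37 S phase genes none passed it either (median -0.04). Scored by phase, 25.2% of D6 cells (22.4% to 28.1%, exact binomial 95% interval) and 26.3% of D3 cells (22.4% to 30.5%) were called G1. For G2M the shares were 34.5% (31.5% to 37.6%) and 31.9% (27.8% to 36.3%). These intervals cover the counting of cells within the library of each day and not the difference between cultures. Among the largest families, 70 of 82 cytosolic ribosomal protein genes lay above 0 (median 0.11) and 59 of 79 nuclear-encoded genes of oxidative phosphorylation did (0.09), with 0 past the fold in either family. In cells of 10000 to 30000 UMIs those medians were 0.95 and 0.75, past the fold. Over all cells, the median of all tested genes was itself 0.05 from 200 to 1000 CPM and 0.08 from 1000 CPM up.

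**Figure D3:**
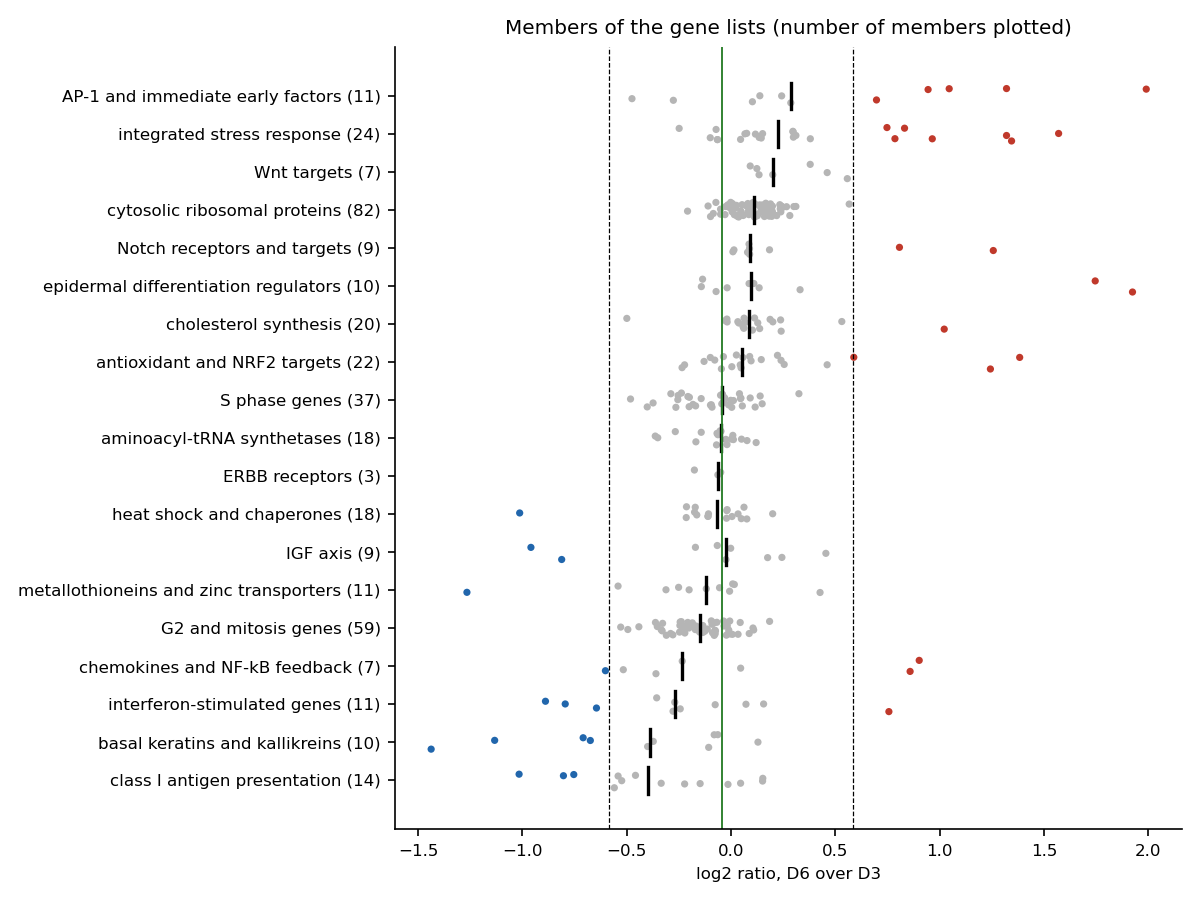
Log2 ratio of D6 over D3 for the tested genes of each list, with 1 point for each gene (red risen, blue fallen), a black bar at the list's median, a green line at the median of all genes (-0.04) and dashed lines at a ratio of 1.5 in either direction. The lists for AP-1 and the integrated stress response have medians of 0.29 and 0.22, and the lists for basal keratins and class I presentation -0.39 and -0.40.

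The course over all 5 libraries differed between the 2 directions. Of the 54 genes that rose, 42 had their highest level at D6 and 11 at D9. D3 lay above both untreated libraries for 45 of the 54 and below both for 7. At D9, 15 of them were back below the D3 level, 28 lay between D3 and D6, and 11 were beyond D6. Of the 53 genes that fell, 19 were lowest at D6 and 22 at D9. D3 lay above both untreated libraries for 31 of those genes and below both for 21. Since the members were chosen by D6 over D3, a D6 extreme is partly set by that choice. These counts are a description.

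To compare cells of unequal depth, each cell was thinned at random to 5000 UMIs, and the share of cells with at least 1 UMI of a gene was taken. HERPUD1 was found in 41.1% of D3 cells (exact binomial 95% interval 36.7% to 45.7%) and 79.2% of D6 cells (76.5% to 81.7%), where the unthinned shares were 85.0% and 95.6%. ZNF750 was found in 10.6% (8.03% to 13.8%) and 36.2% (33.1% to 39.4%), with 32.6% and 61.8% unthinned. Both genes were named for their ratio and their change of share, and the intervals cover counting error within the library of each day only. RIPK4 was in 14.4% and 36.4% of thinned cells, MAFF in 8.35% and 27.5%, and NR4A2 in 7.72% and 22.9%. For genes that nearly every cell held, the count in a cell shifted instead, since 76.6% of D3 cells and 97.6% of D6 cells had at least 3 UMIs of IER3. In the lower direction KLK6 was found in 30.1% and 13.9% of thinned cells (59.3% and 28.1% unthinned) and KRT5 in 91.2% and 79.4%. HLA-B was found in 62.8% and 47.9%. Thinned shares of EGFR were 97.1% and 95.3%, with intervals of 95.1% to 98.4% and 93.8% to 96.6%.

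**Figure D4:**
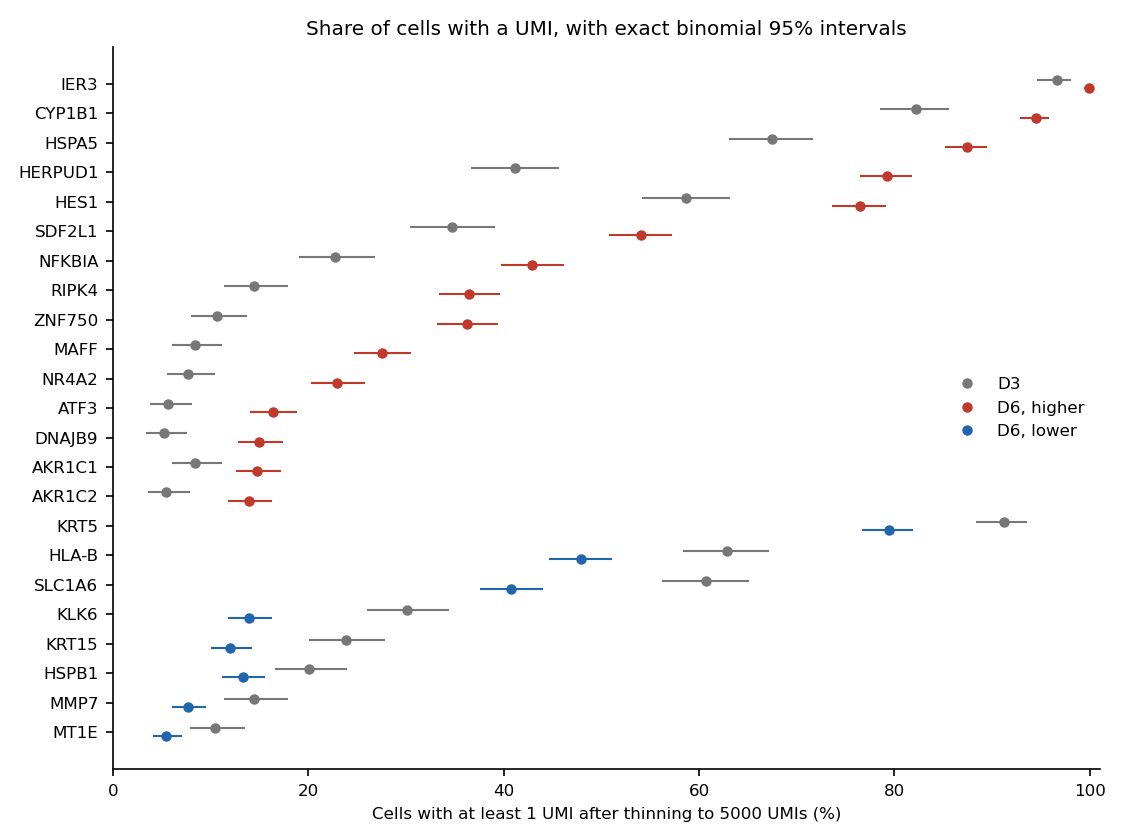
Share of cells with at least 1 UMI of a gene after thinning to 5000 UMIs a cell, in percent, at D3 (grey) and D6 (red for genes that rose, blue for genes that fell), with exact binomial 95% intervals that cover counting error only. HERPUD1 moves from 41.1% to 79.2% and KLK6 from 30.1% to 13.9%.

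Co-detection within cells was taken for a few pairs of genes that rose, after thinning, as a description. Among D6 cells with HERPUD1, 89.3% also held HSPA5, beside 80.6% of D6 cells without it, and at D3 the shares were 66.5% and 68.1%. Other risen ER genes tracked HERPUD1 less. Over 942 D6 cells its Pearson's r was 0.20 with HSPA5, 0.10 with SDF2L1 and 0.09 with HYOU1. With DNAJB9, SYVN1 and DDIT3 it was 0.02, 0.01 and 0.02. NR4A2 was found in 31.3% of D6 cells with MAFF and in 19.8% of those without. MAFF was in 25.9% of D3 cells with ATF3 and 7.30% of the rest, but at D6 in 26.6% and 27.7%. AKR1C2 was in 25.2% of D6 cells with AKR1C1 and in 11.96% of the rest. The pair ZNF750 and RIPK4 differed less, since RIPK4 was found in 39.6% of D6 cells with ZNF750 (34.4% to 45.0%) and in 34.6% of the rest (30.8% to 38.6%), intervals that overlap. The thinned genes still tracked the original depth and mitochondrial share of D6 cells, with Pearson's r over 942 cells of -0.18 and 0.17 for HERPUD1, -0.17 and 0.14 for HSPA5, and -0.15 and 0.15 for MAFF, and their part in the co-detection was not tested.

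The counts of changed genes depended on which cells were summed. In cells of 10000 to 30000 UMIs, 251 at D3 and 548 at D6, 612 of 6733 genes were at least 1.5-fold higher and 622 lower. There, 40 of the 54 rises and 38 of the 53 falls kept their call. The median mitochondrial share of those cells was 27.4% at D3 and 14.3% at D6, so the window that evens out depth sets cells of unequal mitochondrial share side by side. In cells under 10% mitochondrial counts, 85 at D3 and 188 at D6, 35 rises and 37 falls kept their call. In G1 cells 42 and 39 did. With TMM factors 54 rises and 34 falls did, and the falls of SPRY1, NFKBIZ, ITGB4, ITGA2, FBLN1 and UBE2L6 did not. MAFF, NR4A2, ZNF750, RIPK4, HERPUD1, DNAJB9, HSPA5, IER3, NRARP, HES1, CYP1B1, AKR1C1, AKR1C2, KLK6, KRT15, KRT5, IGFBP3, MX1 and HLA-F were past the fold under each of the 10 settings run on single genes.

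**Figure D5:**
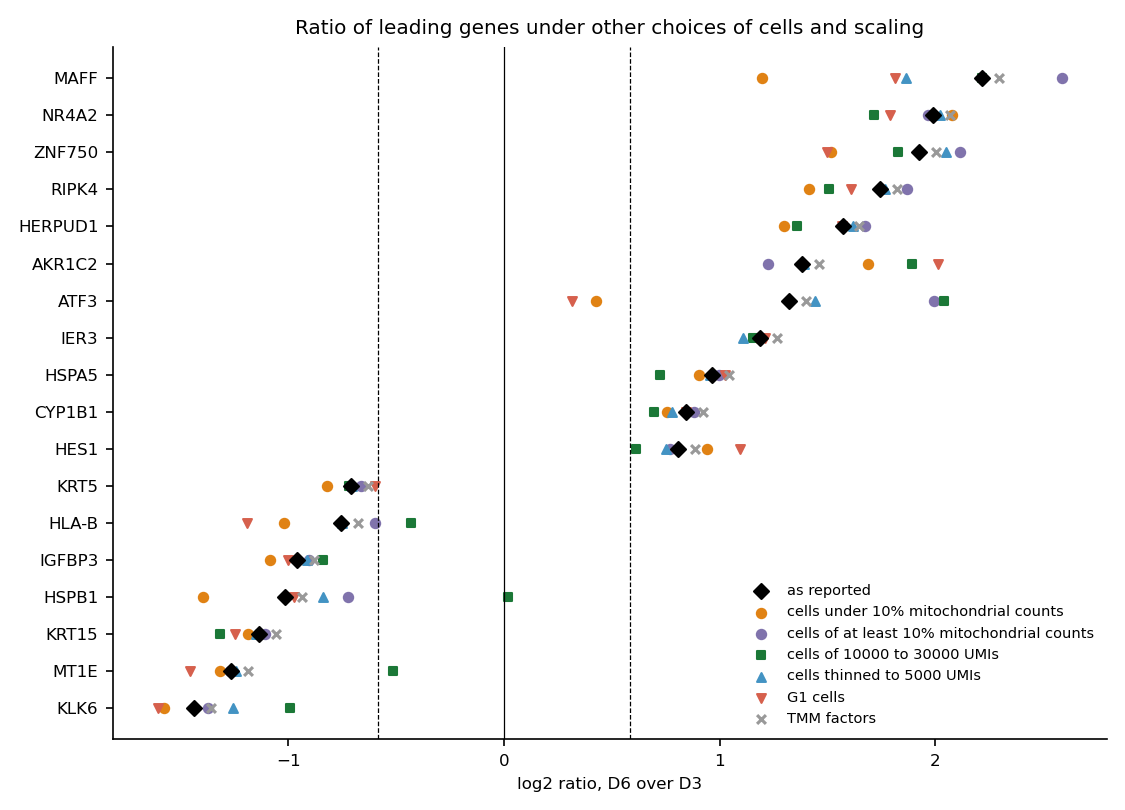
Log2 ratio of D6 over D3 for 18 named genes as reported (black) and under 6 of the other choices of cells or scaling, with dashed lines at a ratio of 1.5 in either direction. HERPUD1 lies between 1.30 and 1.68, ATF3 between 0.32 and 2.04, and HSPB1 between -1.39 and 0.021.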

How the data were processed

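Single-cell RNA sequencing (10x Genomics, 3′ end) was available for 5 libraries of MDA-MB-468 cells. The authors deposited one table of UMI counts after a batch adjustment, with the unit here named expected counts, because adjusted values are no longer the molecules counted. The submitters' processing notes name Cell Ranger 6.1.2 and the build GRCh38. Per the methods, the authors removed cells of low UMI count, outliers in mitochondrial share, doublets and low genes, and adjusted the counts between batches with ComBat-seq. The deposited values were whole numbers. D3 and D6 carried the same trace of that adjustment: 4484 genes at D3 and 4395 at D6 lacked the value 2, of which 4382 were shared, whereas untreated replicate 2 shared 0 with either, so levels of that library were set by another adjustment.

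Counts were summed over the cells of a library. Log2 ratios used CPM with 0.5 added to each summed count, and genes whose mean over D3 and D6 reached 20 CPM were kept. A gene was called at a ratio of 1.5. With 1 library a day no p-value was given. Intervals of ratios are exact conditional binomial and intervals of shares exact binomial (Clopper-Pearson), both at 95%, and cover counting error only. Those of ratios leave out the spread between cells and treat adjusted values as counts. Shares of cells used cells thinned to 5000 UMIs. Phases were scored with scanpy 1.11.5 on 44 S and 60 G2M genes. Scaling alternatives used edgeR 4.0.16 and DESeq2 1.42.0, with factors only. The ratio calculation was tested on simulated data. Of 12474 genes, 423 had no symbol. Gene positions are from GENCODE v44 and promoter windows from RefSeq, GRCh38.p14.

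The named genes were the 15 highest and 15 lowest ratios, the 8 highest and 8 lowest from 200 CPM, the 5 largest changes of share each way, up to 4 genes of each list and 16 genes given by name, 203 in all. Other named genes were chosen after their values were seen. The comparison and the lists were chosen with earlier results of these data known. Alternatives were other scaling, other minimum levels, thinning, cells of 10000 to 30000 UMIs, cells under 10% mitochondrial counts and G1 cells, and cells of at least 10% mitochondrial counts, chosen after seeing the data. Some items are not reported here.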

Additional observations from a re-analysis of the deposited data

How the results depend on the processing

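No paired analysis was possible because D3 and D6 hold 1 library each. The 54 rises and 53 falls became 86 and 32 with DESeq2 size factors and 81 and 34 with TMM factors, which moved the median of all genes from -0.04 to 0.04, and every rise and 32 or 34 of the falls kept their call. The counts were 82 and 286 in G1 cells, 612 and 622 in cells of 10000 to 30000 UMIs, 88 and 195 in cells thinned to 10000 UMIs, and 80 and 166 in cells thinned to 5000. They were 48 and 238 in cells under 10% mitochondrial counts, and 67 and 88 without mitochondrial, ribosomal and MALAT1 counts. With a minimum of 5 CPM they were 110 and 336 of 10617 genes, and with 50 CPM 28 and 10 of 3362. With no minimum they were 255 and 872 of 12394, and at a ratio of 2 they were 16 and 11. Cells of at least 10% mitochondrial counts (69 and 52) and a pseudocount of 5 (52 and 51) stayed within 1.5 times. Fewer cells or counts were summed in the subsets, but the counts of changed genes did not follow the summed counts. Cells thinned to 5000 UMIs held 2395000 counts at D3 and 4710000 at D6. Cells of 10000 to 30000 UMIs held more, 4758500 and 9906500, and gave more changed genes. The log2 ratios of the latter cells had a correlation of 0.49 with the ratios as reported. The cause was not tested. Log2 ratios turned sign in cells of 10000 to 30000 UMIs for CAMK2N1 (0.025), HSPB1 (0.021), KLK5 (0.24), NEAT1 (-0.10), OASL (-0.37) and UBE2L6 (0.10), and for OASL in G1 cells (-2.92). The depth of 1 library a day limits all statements to these libraries.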
